A study of Mus musculus with 12 samples.

Results

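The mitochondrial carrier family, family 25 of the solute carriers, was followed in epididymal fat of male C57BL/6J mice with and without the ubiquitin ligase gene Siah2. Members were the probes of the Illumina mouse bead array whose symbol in the deposited gene-name table began with Slc25a and a digit, or was Ucp1, Ucp2, Ucp3, Mtch1 or Mtch2. This rule used no measured value and found 70 of 25697 probes, for 45 of 18002 genes. Probes entered the test if 3 or more of the 12 arrays detected them (detection p under 0.05), and 56 probes for 40 members remained among 11705 genes tested.

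The 12 arrays each held RNA pooled from several animals, with 3 pools in each of 4 groups. Siah2 knockout mice, described as a global knockout, ate a diet with 45% or 10% fat, and wild type mice ate the same diets with 45% or 10% fat. All animals were weaned onto the diets at 4 weeks and were 20 weeks old when the fat was taken. The knockout high fat group held 8 animals, in pools of 2 or 3, and each of the other groups held 10 animals, in pools of 3 or 4. A pool averages its animals, so p-values measure the spread between pools, which is not the spread between single mice.

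Carriers of this family fold into the inner mitochondrial membrane and move nucleotides, phosphate, carboxylates, amino acids, acylcarnitines, cofactors and metals between the cytosol and the matrix. A few relatives sit in the outer membrane or in peroxisomes. In fat cells the family supplies citrate for fatty acid synthesis, admits acylcarnitines for oxidation, exchanges ATP for ADP, and, through Ucp1 in thermogenic fat cells, lets protons leak back so that heat is released. Values below are the authors' normalized intensities, an arbitrary unit of probe brightness, always in the order of pools 1, 2 and 3. Log2 changes were computed on intensity plus 50, which compresses the changes of dim probes. Levels of different probes cannot be set against each other. Means are given ± SD over 3 pools and log2 changes ± SE from limma. A gene is called when its limma p, adjusted by Benjamini-Hochberg over the 11705 genes tested, was under 0.05.

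Upstream sequence is shown for 5 of the 12 members that passed the test in a comparison below, as the stretch of 250 bases before to 50 bases after a transcription start in RefSeq on GRCm38.p6, read 5′ to 3′ on the gene's strand. Shown are Slc25a20, Slc25a1 and Mtch2, which were higher in knockout on low fat, Slc25a29, which had the largest fall with high fat in wild type, and Slc25a25, which had the largest rise. Capitals mark motifs searched on both strands: the GC box GGGCGG in all 5, the cyclic AMP response element TGACGTCA in Slc25a25, the NRF1 motif in Mtch2 and the E-box CACGTG in Slc25a1.
Slc25a20, chr9:108661886-108662185, plus strand: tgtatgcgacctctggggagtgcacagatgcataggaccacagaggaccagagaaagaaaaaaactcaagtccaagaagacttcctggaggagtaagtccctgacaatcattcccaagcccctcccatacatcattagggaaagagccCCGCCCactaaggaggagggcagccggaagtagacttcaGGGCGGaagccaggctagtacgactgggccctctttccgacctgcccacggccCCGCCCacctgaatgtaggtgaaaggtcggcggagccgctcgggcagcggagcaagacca
Slc25a25, chr2:32424017-32424316, minus strand: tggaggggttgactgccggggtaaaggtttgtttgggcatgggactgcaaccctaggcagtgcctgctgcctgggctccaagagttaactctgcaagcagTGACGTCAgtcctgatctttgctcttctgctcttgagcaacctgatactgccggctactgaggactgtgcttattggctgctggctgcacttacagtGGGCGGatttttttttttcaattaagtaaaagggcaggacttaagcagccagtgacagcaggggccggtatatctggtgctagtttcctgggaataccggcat
Slc25a1, chr16:17928170-17928469, minus strand: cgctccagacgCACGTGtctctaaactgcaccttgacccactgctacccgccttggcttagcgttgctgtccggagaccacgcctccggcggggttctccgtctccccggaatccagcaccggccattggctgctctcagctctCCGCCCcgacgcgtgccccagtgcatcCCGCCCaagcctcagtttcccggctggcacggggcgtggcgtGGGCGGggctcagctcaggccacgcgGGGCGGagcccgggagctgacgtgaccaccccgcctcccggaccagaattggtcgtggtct
Mtch2, chr2:90846905-90847204, plus strand: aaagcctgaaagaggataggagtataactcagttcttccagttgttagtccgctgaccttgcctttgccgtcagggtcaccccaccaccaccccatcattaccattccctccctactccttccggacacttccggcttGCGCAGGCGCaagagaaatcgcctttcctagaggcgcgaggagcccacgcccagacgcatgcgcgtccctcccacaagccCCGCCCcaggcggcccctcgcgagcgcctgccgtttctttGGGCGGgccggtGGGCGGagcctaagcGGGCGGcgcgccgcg
Slc25a29, chr12:108835827-108836126, minus strand: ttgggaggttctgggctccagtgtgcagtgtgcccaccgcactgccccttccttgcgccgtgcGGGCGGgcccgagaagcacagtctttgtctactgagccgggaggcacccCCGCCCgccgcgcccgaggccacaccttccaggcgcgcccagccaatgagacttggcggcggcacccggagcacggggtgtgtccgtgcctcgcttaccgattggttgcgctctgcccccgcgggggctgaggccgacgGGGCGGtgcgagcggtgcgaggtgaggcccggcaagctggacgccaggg

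Of the 12 called members, 10 were matched in the table by symbol, with 12 starts, 3 of them of Slc25a25. Slc25a37 is named only. The GC box was in 10 of the 12 windows and in 35.7% of all 32851 promoter windows of the table. The cyclic AMP response element lay 150 bases before 1 of the 3 Slc25a25 starts and was in 1.79% of all windows. The NRF1 motif lay 112 bases before the Mtch2 start and was in 4.6% of all windows, and the E-box lay 239 bases before the Slc25a1 start and was in 7.15% of all windows. The ERR element TCAAGGTCA and the PPAR direct repeat with 1 base between its repeats, in 0.423% and 0.0396% of all windows, were in none of the 12. The window of Slc25a12 held none of the motifs searched. These matches describe letters in a window and show nothing about binding.

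The arrays detected 13389 to 15037 probes. All 10 listed adipocyte genes were detected on every array, and they differed between groups as well. On low fat 4 of the 10, Cidec, Pnpla2, Aqp7 and Lep, were higher in knockout than in wild type, by 0.72 to 0.82 on the log2 scale. Of all genes tested, 4.72% were called higher there. In 7 of 10 the knockout pools lay above the wild type pools without overlap, as in 19.1% of all genes, and the median change was 0.58 over the list. With high fat in wild type 3 of the 10 were higher and 1 was lower, against 22.8% and 16.8% of all genes, with a median change of 0.33. Their part in the carrier changes given below was not tested. Siah2 itself read 55.3, 68.2 and 45.0 in knockout high fat pools, 102, 62.2 and 63.4 in knockout low fat pools, 111, 78.6 and 89.0 in wild type high fat pools and 102, 121 and 91.6 in wild type low fat pools. Its probe was dimmer in knockout by 0.37 ± 0.11 on the log2 scale averaged over both diets, with an adjusted p of 0.0795 in limma, and knockout low fat pool 1 lay within the wild type range. The sources used here do not say whether the probe falls inside the part of Siah2 that was disrupted. Transcripts of neighbouring tissue differed between groups. The mean log2 value of 13 epididymis genes was 5.75 to 10.0 in knockout high fat pools, 8.58 to 11.1 in knockout low fat pools, 6.49 to 6.87 in wild type high fat pools and 12.2 to 13.6 in wild type low fat pools. For 8 seminal vesicle genes it was 5.67 to 6.04, 8.86 to 9.16, 5.66 to 5.78 and 12.4 to 14.8 in the same group order. In the wild type high fat pools 7 of these 8 genes averaged below the approximate detection floor of 27.9, and in the knockout high fat pools 6 of 8 did. Knockout low fat pool 1 also had the highest mean of 12 skeletal muscle genes, 9.69, against 7.36 and 7.39 in the other pools of its group, and knockout high fat pool 2 had the epididymis value of 10.0, against 5.98 and 5.75. Macrophage genes were higher on high fat in both genotypes, 9 of 10 in knockout and 10 of 10 in wild type. Of all genes tested, 4.37% were called in either direction in knockout and 22.8% were called higher in wild type. In RNA from whole fat, fewer cells of a type and less RNA per cell cannot be told apart.

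In wild type fat, 8 of the 40 carrier genes tested were higher on high fat than on low fat and 3 were lower. Among the genes that rose were the acylcarnitine carrier Slc25a20, the dicarboxylate carrier Slc25a10, the calcium-regulated ATP-Mg/phosphate carriers Slc25a24 and Slc25a25, the mitoferrin Slc25a37, Slc25a45 and the outer membrane protein Mtch2. The genes that fell were Slc25a29, Slc25a12 and Slc25a16. The 11 calls were 27.5% of the members, against 39.5% of all genes tested (22.8% higher and 16.8% lower), so the share was below that of the array as a whole. The median log2 change was 0.063 over the family and 0.061 over all genes. With cyclic loess normalization 11 members were called, 7 higher and 4 lower, and the share of higher calls among all genes called was 46.2%, against 57.6% with the authors' normalization.

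In knockout fat no member was called between the diets, where 4.37% of all genes were, and 4 members had an unadjusted limma p under 0.05, as 17% of all genes did. On low fat Slc25a1, Slc25a20 and Mtch2 were higher and Slc25a12 was lower in knockout than in wild type, 4 of 40 members or 10%, against 7.9% of all genes (4.72% higher and 3.18% lower). On high fat no member differed between knockout and wild type by the test, with 5 at an unadjusted limma p under 0.05 (11.5% of all genes), and 0.0854% of all genes were called. Averaged over both diets 1 member, Mtch2, was called, where 2.78% of all genes were (1.7% higher). The difference between the diet effects of the genotypes was called for no member, with 5 at an unadjusted limma p under 0.05 (20.4% of all genes), and for 0.103% of all genes. The diet comparison in wild type and the knockout comparison on low fat share the wild type low fat arrays, so they are not independent of each other.

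**Figure D1:**
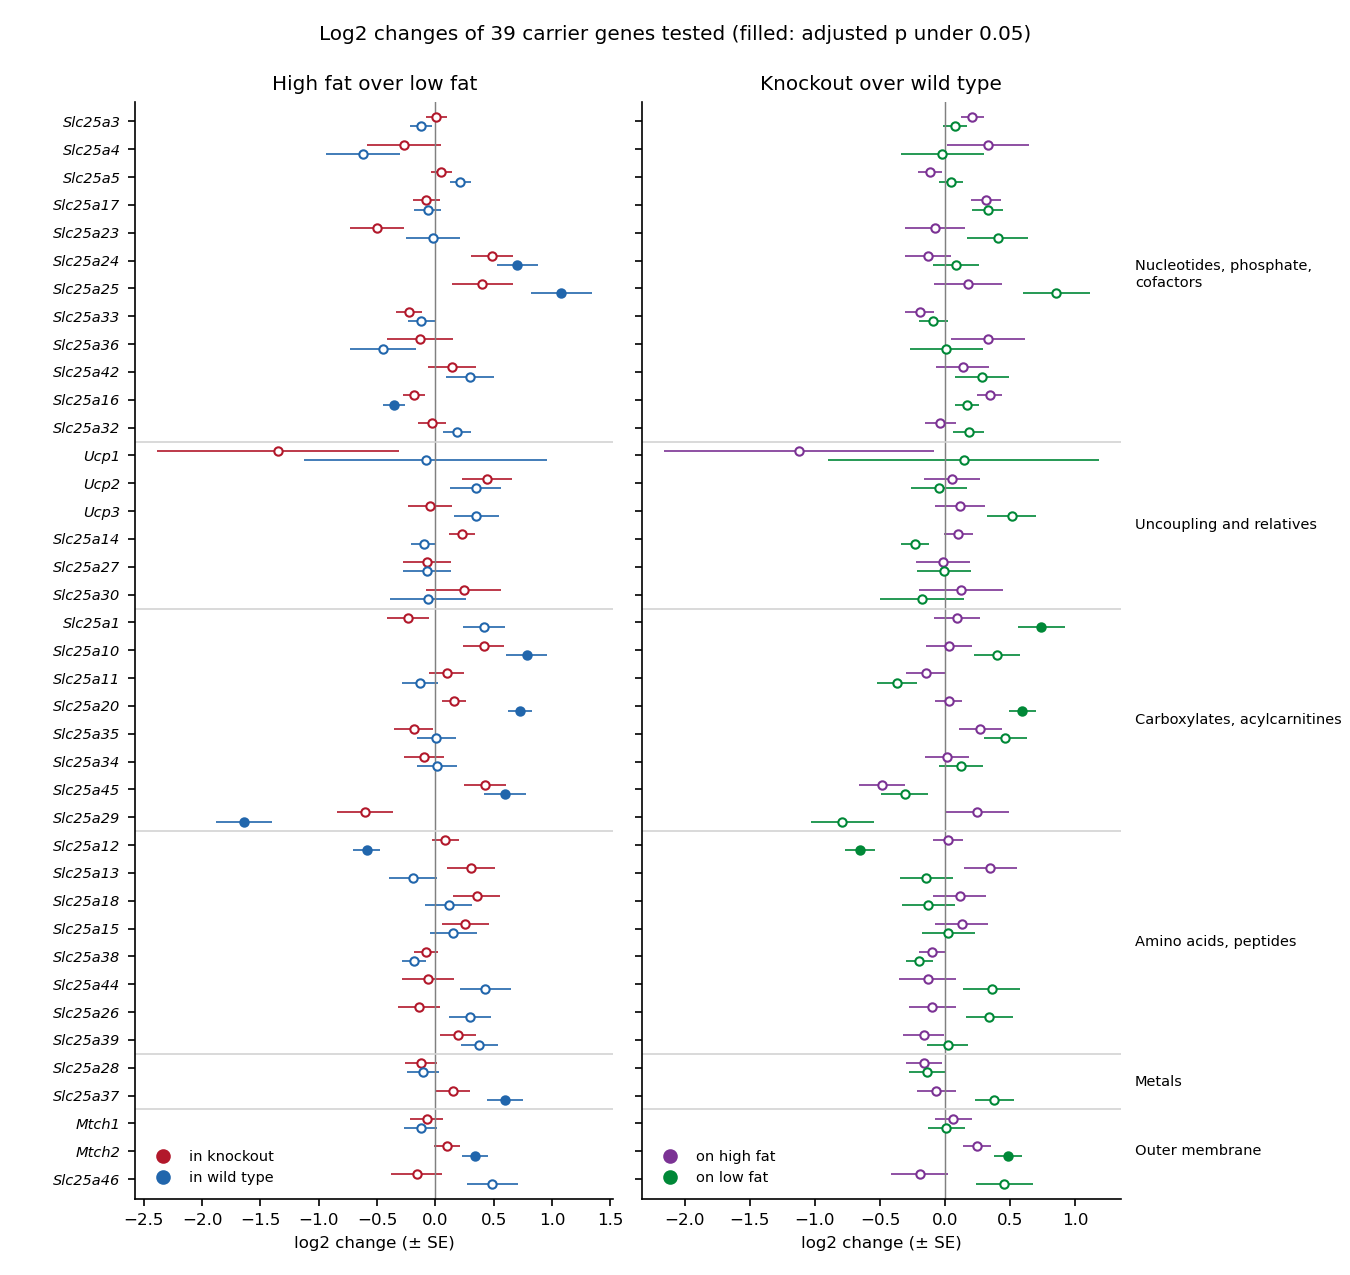
Log2 change ± SE of 39 carrier genes tested, on the horizontal axis, for high fat over low fat (left, knockout and wild type) and knockout over wild type (right, high fat and low fat). Genes are grouped by what they carry, by membrane or by nearest relatives in sequence. Slc25a29, a carrier of basic amino acids, is drawn with the carboxylate and acylcarnitine carriers. Filled points had an adjusted p under 0.05 in limma: 10 for wild type diet, 4 for knockout on low fat, none for the knockout diet change and none for knockout on high fat.

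Among the carriers of nucleotides, phosphate and cofactors, 13 were tested and 4 were called in the wild type diet comparison, where 39.5% of all genes were. Slc25a25 read 730.3, 720.0 and 1126 in knockout high fat and 386, 798 and 777 in knockout low fat pools. Slc25a25 in wild type read 596, 832 and 809.6 in high fat and 335, 344 and 291 in low fat pools. Slc25a25 exchanges ATP-Mg for phosphate and is gated by calcium. All 3 wild type high fat pools lay above all 3 wild type low fat pools, and knockout low fat pool 1 was the lowest of the pools outside wild type low fat. The wild type diet change was 1.08 ± 0.26 on the log2 scale (adjusted p = 0.0078 in limma), and the knockout diet change was 0.40 ± 0.26 (adjusted p = 0.49). On low fat the knockout change was 0.85 ± 0.26 (adjusted p = 0.0659), and without knockout low fat pool 1 it was 1.17 (adjusted p = 0.0155). Leaving out any other pool alone gave no call for this change.

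Slc25a24 read 417, 376 and 453 in knockout high fat and 197, 390.0 and 288 in knockout low fat pools. Slc25a24 in wild type read 452, 485 and 441 in high fat and 283, 271 and 236 in low fat pools. This paralog of Slc25a25 carries the same substrates. The wild type diet groups did not overlap, with a change of 0.70 ± 0.18 (adjusted p = 0.0102 in limma), and the knockout diet groups overlapped through knockout low fat pool 2 (0.48 ± 0.18, adjusted p = 0.18). Its other kept probes gave 1.05 (adjusted p = 0.00168 when every probe was tested on its own) and 0.21 (adjusted p = 0.259) in wild type. The third paralog tested, Slc25a23, was not called and changed by -0.02 in wild type.

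Slc25a16, a carrier linked to coenzyme A supply, averaged 2324 ± 70.3 in knockout high fat, 2639 ± 12.9 in knockout low fat, 1828 ± 196 in wild type high fat and 2342 ± 62.5 in wild type low fat pools. With high fat in wild type it fell by 0.35 ± 0.10 on the log2 scale (adjusted p = 0.0138 in limma). On high fat all knockout pools lay above all wild type pools, with a change of 0.34 ± 0.10 that was not called (adjusted p = 0.223).

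Slc25a5 read 11824, 11693 and 11524 in knockout high fat and 11491, 11524 and 10817 in knockout low fat pools. Slc25a5 in wild type read 13468, 12814 and 11738 in high fat and 11060.0, 11491 and 10229 in low fat pools. Slc25a5 is the main ADP/ATP exchanger of many tissues outside heart and muscle. Its wild type diet groups did not overlap, but the change of 0.21 ± 0.09 missed the threshold (adjusted p = 0.0847 in limma). Slc25a4 read 131, 141 and 109.9 in knockout high fat and 127, 179 and 188 in knockout low fat pools. Slc25a4 in wild type read 113, 25.4 and 176 in high fat and 143, 168 and 190.3 in low fat pools. Slc25a4 is the heart and muscle form of the exchanger, and wild type high fat pool 2 stood alone at 25.4. Its wild type diet change was -0.62 ± 0.32 (adjusted p = 0.142). It was -0.96 (adjusted p = 0.0251) without wild type high fat pool 3, the highest of its group, a fit that keeps the 25.4 of pool 2. No other alternative called Slc25a4, so the call depends on that pool. Knockout low fat pool 1, which had the highest muscle mean, read 127 for Slc25a4, the lowest of its group. In wild type low fat pools 1, 2 and 3 the muscle means were 7.35, 8.40 and 8.74, rising in the same order as Slc25a4. The part of muscle RNA in the Slc25a4 values was not tested.

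The phosphate carrier Slc25a3 averaged 7215 ± 194 in knockout high fat, 7168 ± 71.8 in knockout low fat, 6249 ± 591 in wild type high fat and 6791 ± 102 in wild type low fat. Its 2 kept probes differed in sign for the wild type diet change, at -0.12 and 0.23, and neither was called. Slc25a17, a peroxisomal carrier of coenzyme A and related nucleotides, averaged 2639 ± 161 and 2782 ± 57.7 in knockout on high and low fat, against 2126 ± 347 and 2212 ± 129 in wild type on the same diets. The knockout change was 0.32 ± 0.12 on high fat (adjusted p = 0.362 in limma) and 0.33 ± 0.12 on low fat (adjusted p = 0.102). The pyrimidine nucleotide carriers Slc25a33 and Slc25a36, the coenzyme A carrier Slc25a42 and the folate and FAD carrier Slc25a32 were called in no comparison. Their wild type diet changes ran from -0.45 for Slc25a36 to 0.29 for Slc25a42.

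**Figure D2:**
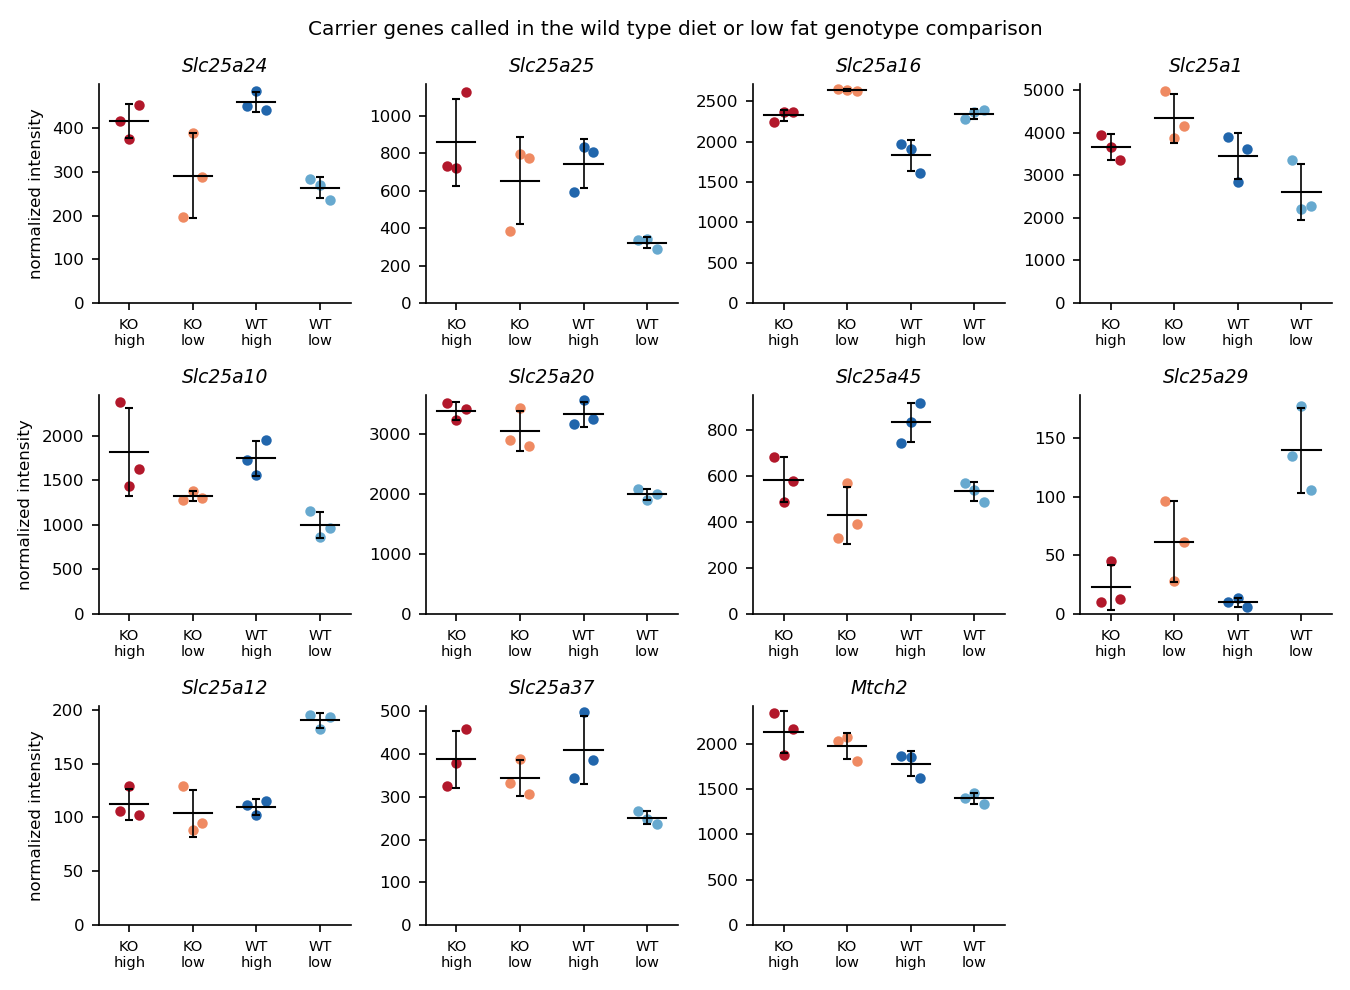
Normalized intensity (linear axis from 0) of 11 carrier genes that passed the test in the wild type diet comparison or in the low fat genotype comparison, each point 1 pool, with bars for the mean ± SD of 3 pools. Wild type low fat pools all lie above the other pools for Slc25a29 and Slc25a12. They all lie below the other pools for Slc25a10, Slc25a20, Slc25a25, Slc25a37 and Mtch2.

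The uncoupling proteins and their nearest relatives gave no call in any comparison, while 39.5% of all genes were called for the wild type diet. Ucp1 read 3.1, 6.5 and 13.9 in knockout high fat and 633, 24.1 and 12.7 in knockout low fat pools. Ucp1 in wild type read 4.3, 16.9 and 495 in high fat and 40.1, 24.0 and 304 in low fat pools. Ucp1, the proton leak of thermogenic fat, was bright in 3 single pools, 1 each of knockout low fat, wild type high fat and wild type low fat, and was at most 40.1 in the other 9. All knockout high fat pools were below the floor of 27.9. So were knockout low fat pools 2 and 3 and wild type high fat pools 1 and 2. The means of knockout low fat and wild type high fat therefore rest on 1 pool each, and no fold is given. The tests reflected this spread: the knockout diet change was -1.35 ± 1.04 (adjusted p = 0.571 in limma) and the wild type diet change -0.08 ± 1.04 (adjusted p = 0.956).

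Of the other 4 thermogenic fat genes tested, Cidea, Cox8b and Cox7a1 were highest in the same 3 pools of their groups, and Ppargc1a was highest in 2 of them. Cidea read 140.4, 81.5 and 60.9 in knockout high fat and 629.5, 165 and 109.6 in knockout low fat pools. Cidea in wild type read 48.4, 66.9 and 178 in high fat and 58.7, 62.0 and 144 in low fat pools. Cidea is a lipid droplet protein abundant in brown fat cells, and its highest pool in each of these 3 groups was the one with the highest Ucp1. Cox8b read 1837, 1471 and 1441 in knockout high fat and 2871, 1612 and 1476 in knockout low fat pools. Cox8b in wild type read 1406, 1382 and 2571 in high fat and 821, 566 and 1182 in low fat pools. Cox8b encodes a cytochrome oxidase subunit of brown fat and muscle. Ppargc1a, a coactivator of mitochondrial biogenesis, read 151, 92.5 and 139 in knockout low fat, 88.9, 86.0 and 118 in wild type high fat and 101, 30.6 and 45.2 in wild type low fat pools, where pool 1 was the highest. Between diets in wild type Cox7a1 and Cox8b were called, by 0.86 and 1.02 on the log2 scale (adjusted p = 0.0281 and 0.0287 in limma), and none of the 5 was called on low fat between genotypes. The mean log2 value of the 5 thermogenic genes tested, Ucp1 among them, was 9.44 in knockout low fat pool 1, 9.05 in wild type high fat pool 3 and 8.30 in wild type low fat pool 3. It ran from 7.31 to 8.09 in the other pools. The muscle mean of these pools was 9.69, 7.06 and 8.74 in the same order, and its part in the thermogenic values was not tested.

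**Figure D3:**
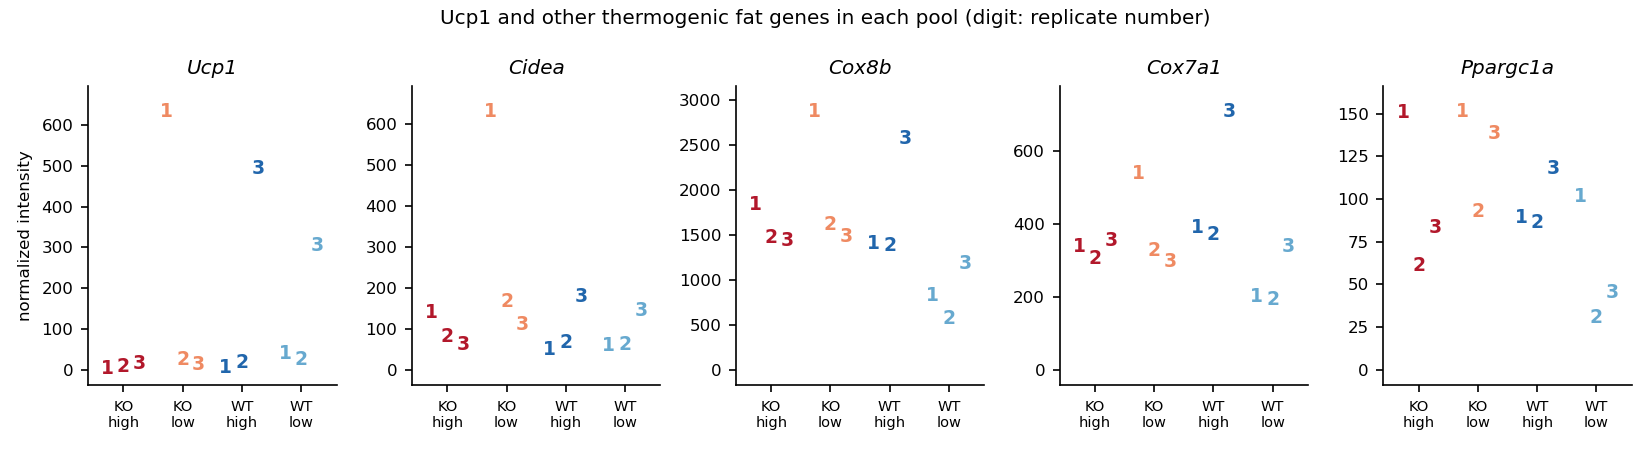
Normalized intensity (linear axes) of Ucp1 and 4 other thermogenic fat genes in the 12 pools, each digit the replicate number of 1 pool, by group. Pool 1 of knockout low fat, pool 3 of wild type high fat and pool 3 of wild type low fat are the highest of their groups for each gene, except that pool 1 is the highest of wild type low fat for Ppargc1a.

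Ucp2 read 31.4, 4.5 and 47.7 in knockout high fat and 1.6, 8.9 and 7.2 in knockout low fat pools. Ucp2 in wild type read 27.1, 21.3 and 21.1 in high fat and -6.1, 11 and 21.4 in low fat pools. Ucp2 is expressed in macrophages as well as in many other cells. The probe was at or near the floor on most arrays and detected on 4, and no change was called (wild type diet change 0.34 ± 0.21, adjusted p = 0.228 in limma). A second Ucp2 probe, detected on 3 arrays, read 36.9, 47.8 and 15.7 in wild type high fat pools, against -13.2, 9.7 and -8.8 in wild type low fat pools. Tested on its own it was called, at 0.87 ± 0.19 (adjusted p = 0.00541 in limma). All wild type low fat pools and wild type high fat pool 3 lay below the floor of 27.9, so no fold is given. A probe detected on 3 arrays can pass the filter through the group where it is bright, so this call is a description only. The 10 macrophage genes averaged 11.2 to 11.6 on the log2 scale in the same wild type high fat pools and 9.01 to 9.40 in the wild type low fat pools, and their part in the Ucp2 values was not tested.

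Ucp3 read 71.1, 48.9 and 89.9 in knockout high fat and 48.0, 107 and 70.0 in knockout low fat pools. Ucp3 in wild type read 59.9, 58.0 and 61.7 in high fat and 46.9, 20.3 and 43.7 in low fat pools. Ucp3 is best known from skeletal muscle. All 3 wild type high fat pools lay above the wild type low fat pools, and all 3 knockout low fat pools did as well. The wild type diet change was 0.35 ± 0.19 (adjusted p = 0.166 in limma) and the knockout change on low fat 0.51 ± 0.19 (adjusted p = 0.112). The latter was 0.67 (adjusted p = 0.0455) without knockout low fat pool 1, and leaving out any other pool alone gave no call. The relatives Slc25a14, Slc25a27 and Slc25a30 had wild type diet changes of -0.10, -0.07 and -0.06, and Slc25a27 was detected on 3 arrays only.

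Among 8 carriers of carboxylates, acylcarnitines and their nearest relatives by sequence, 4 were called between diets in wild type (39.5% of all genes) and 2 between genotypes on low fat (7.9% of all genes). Slc25a20 read 3516, 3222 and 3409.5 in knockout high fat and 2905, 3424 and 2799 in knockout low fat pools. Slc25a20 in wild type read 3158, 3555 and 3254 in high fat and 2082, 1890.3 and 2006 in low fat pools. Slc25a20 exchanges acylcarnitines for free carnitine and so admits long-chain fatty acids to oxidation. The 3 wild type low fat pools lay below all 9 others. High fat raised it in wild type by 0.72 ± 0.10 on the log2 scale (adjusted p = 0.000559 in limma), and in knockout the diet change was 0.16 ± 0.10 (adjusted p = 0.501). On low fat the knockout was higher by 0.59 ± 0.10 (adjusted p = 0.0196), a call lost without knockout low fat pool 2 or without wild type low fat pool 2 (highest adjusted p = 0.0846). The call was also lost with only the 2 groups compared. The difference between the diet effects was -0.57 ± 0.15 (adjusted p = 0.129). A dimmer Slc25a20 probe gave 0.40 ± 0.31 for the wild type diet change and was not called.

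Slc25a1 read 3958, 3670.5 and 3354 in knockout high fat and 4982, 3867 and 4155 in knockout low fat pools. Slc25a1 in wild type read 3911, 2846 and 3608 in high fat and 3358, 2199 and 2269 in low fat pools. Slc25a1 exports citrate, the source of cytosolic acetyl-CoA for fatty acid synthesis. On low fat all knockout pools lay above all wild type pools, by 0.74 ± 0.18 (adjusted p = 0.0391 in limma). This call was lost in 6 of the 12 fits that left out 1 pool, with an adjusted p of up to 0.128, and with only the 2 groups compared. The diet change was -0.24 ± 0.18 in knockout (adjusted p = 0.569) and 0.41 ± 0.18 in wild type (adjusted p = 0.0918). Its second probe read 388, 324.5 and 276.5 in knockout high fat, 388.5, 446 and 398 in knockout low fat, 469, 346 and 306 in wild type high fat, and 274, 147 and 139 in wild type low fat pools. That probe was called in both comparisons, with a wild type diet change of 0.87 ± 0.21 (adjusted p = 0.00913) and a knockout change on low fat of 1.0 ± 0.21 (adjusted p = 0.0303).

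Slc25a10 read 2375, 1438 and 1631 in knockout high fat and 1274, 1385 and 1304 in knockout low fat pools. Slc25a10 in wild type read 1728, 1558 and 1949.6 in high fat and 1158, 869 and 964 in low fat pools. Slc25a10 exchanges malate or succinate for phosphate. High fat raised it in wild type by 0.78 ± 0.18 (adjusted p = 0.00566 in limma) with no overlap of the groups. In knockout the groups did not overlap either, but the change of 0.41 ± 0.18 was not called (adjusted p = 0.262). The oxoglutarate carrier Slc25a11 averaged 868 ± 81.9 in knockout low fat against 1141 ± 161 in wild type low fat, a change of -0.37 ± 0.15 (adjusted p = 0.144). Slc25a35 was higher in every knockout low fat pool than in every wild type low fat pool, at 0.46 ± 0.17 (adjusted p = 0.102), and Slc25a34, detected on 4 arrays, changed by at most 0.12 in size across the 4 pairwise comparisons.

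Slc25a29 read 10.2, 44.9 and 13.1 in knockout high fat and 96.3, 27.7 and 61.2 in knockout low fat pools. Slc25a29 in wild type read 9.9, 14.0 and 6.1 in high fat and 135, 177 and 106 in low fat pools. Slc25a29 carries basic amino acids such as arginine and lysine and resembles the acylcarnitine carrier in sequence. It was detected on 7 arrays. The wild type high fat group was wholly below the floor, so its fall was at least 4.89-fold, and the fitted change was -1.64 ± 0.24 (adjusted p = 0.000687 in limma). In knockout the diet groups overlapped through knockout high fat pool 2, at -0.60 ± 0.24 (adjusted p = 0.227). That pool also had the highest epididymis mean of its group, 10.0, against 5.98 in pool 1 and 5.75 in pool 3. A fit with the epididymis mean as a covariate, given below, did not call Slc25a29. The parts of epididymal RNA and diet in its wild type values cannot be told apart.

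Slc25a45 averaged 584 ± 98.1 in knockout high fat, 429 ± 124 in knockout low fat, 833 ± 86.6 in wild type high fat and 533 ± 42.1 in wild type low fat. Its wild type diet change was 0.60 ± 0.18 (adjusted p = 0.0226 in limma), a call lost in 4 of the 12 fits that left out 1 pool (adjusted p up to 0.0726), and every knockout high fat pool lay below every wild type high fat pool, with a change of -0.48 ± 0.18 (adjusted p = 0.362).

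**Figure D4:**
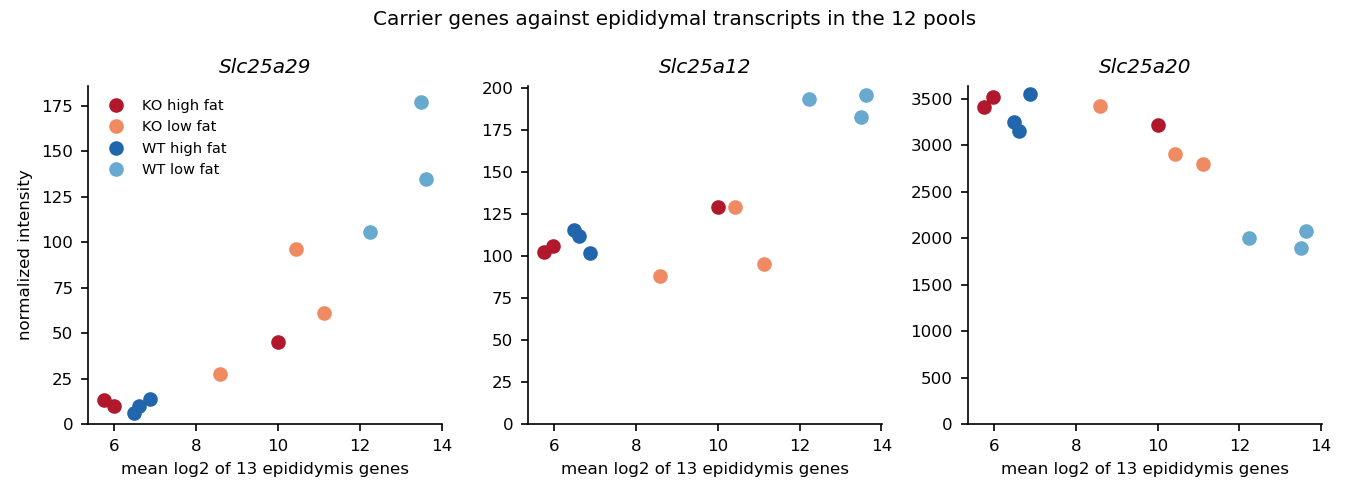
Normalized intensity of Slc25a29, Slc25a12 and Slc25a20 (vertical, linear from 0) against the mean log2 value of 13 epididymis genes (horizontal), each point 1 of 12 pools, coloured by group. The wild type low fat pools, at 12.2 to 13.6, are the highest pools for Slc25a29 and Slc25a12 and the lowest for Slc25a20.

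Of the 8 carriers of amino acids and peptides, 1 was called, in the wild type diet comparison and in the knockout comparison on low fat. Of all genes, 39.5% and 7.9% were called in these comparisons. Slc25a12 read 106, 129 and 102 in knockout high fat and 129, 87.9 and 94.9 in knockout low fat pools. Slc25a12 in wild type read 112, 102 and 116 in high fat and 196, 183 and 193 in low fat pools. Slc25a12 is an aspartate/glutamate carrier of the malate-aspartate shuttle, which hands cytosolic reducing equivalents to the matrix. The 3 wild type low fat pools lay above all 9 others, which overlapped. The wild type diet change was -0.59 ± 0.12 (adjusted p = 0.00287 in limma) and the knockout diet change 0.08 ± 0.12 (adjusted p = 0.783). The knockout change on low fat was -0.65 ± 0.12 (adjusted p = 0.0212), a call lost in 4 of the 12 fits that left out 1 pool (adjusted p up to 0.0793) and with only the 2 groups compared. The difference between the diet effects, 0.67 ± 0.16, missed the threshold (adjusted p = 0.117). Without knockout low fat pool 1 it was 0.79 (adjusted p = 0.0484), and no other alternative called it.

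Its paralog Slc25a13 was detected on 4 arrays and was not called in any comparison, with a wild type diet change of -0.19. The branched-chain amino acid carrier Slc25a44 averaged 563 ± 101 in wild type high fat against 410.2 ± 111 in wild type low fat, at 0.43 ± 0.22 (adjusted p = 0.144 in limma). For the glutathione carrier Slc25a39 the wild type diet change was 0.38 ± 0.16 (adjusted p = 0.0781). It was 0.51 (adjusted p = 0.0322) without wild type low fat pool 1, and no other alternative called it. The glycine carrier Slc25a38, needed for haem synthesis, had 3 kept probes that differed in sign in wild type, from -0.18 to 0.22, and none was called. Slc25a15, Slc25a18 and Slc25a26, carriers of ornithine, glutamate and S-adenosylmethionine, changed by 0.15, 0.11 and 0.30 in wild type without a call.

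The 2 mitoferrins, which bring iron into the matrix, differed in their calls. Slc25a37 read 325, 380.1 and 459 in knockout high fat and 333, 389.5 and 308 in knockout low fat pools. Slc25a37 in wild type read 344, 498 and 386 in high fat and 268, 249 and 237 in low fat pools. Slc25a37, the form most studied in red cell precursors, was higher in all wild type high fat than in all wild type low fat pools, by 0.60 ± 0.15 (adjusted p = 0.0102 in limma). Its diet change in knockout was 0.15 ± 0.15 (adjusted p = 0.68). Slc25a28, the form of most other tissues, averaged 2320.0 ± 252 in knockout high fat, 2559 ± 475 in knockout low fat, 2589 ± 138 in wild type high fat and 2794 ± 94.2 in wild type low fat, with no call. The mean log2 value of 4 erythroid genes was 10.3 to 11.1 in wild type high fat and 9.97 to 10.8 in wild type low fat pools, which overlapped. All 4 changed upward with high fat in wild type, with a median of 0.33, and none of the 4 was called. Their part in the Slc25a37 values was not tested.

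Of the 3 outer membrane members, Mtch2 alone was called, in the wild type diet, low fat genotype and averaged comparisons. Of all genes, 39.5%, 7.9% and 2.78% were called in these comparisons. Mtch2 read 2344, 1880.0 and 2158 in knockout high fat and 2036, 2077 and 1813 in knockout low fat pools. Mtch2 in wild type read 1869.9, 1850.3 and 1624 in high fat and 1404, 1453 and 1334 in low fat pools. Mtch2 inserts proteins with a tail anchor into the outer membrane, as shown in human cells, and binds the apoptosis regulator Bid. Every knockout pool exceeded every wild type pool on the same diet. The knockout change was 0.25 ± 0.11 on high fat (adjusted p = 0.428 in limma), 0.48 ± 0.11 on low fat (adjusted p = 0.0337) and 0.37 ± 0.08 averaged over both (adjusted p = 0.0407). High fat raised it in wild type by 0.34 ± 0.11 (adjusted p = 0.031). Of its 3 kept probes 2 were called in the wild type diet, low fat genotype and averaged comparisons, and the third had the same sign in each. Of the 12 fits that left out 1 pool, the averaged call was lost in 10 (adjusted p up to 0.109), and the wild type diet call and the low fat genotype call were each lost in 5 (adjusted p up to 0.0929 for the diet and 0.118 for the genotype). The low fat genotype call was also lost with only the 2 groups compared.

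Mtch1 read 14737, 17777 and 13594 in knockout high fat and 17024, 14649 and 16609 in knockout low fat pools. Mtch1 in wild type read 14084, 14815 and 14992 in high fat and 13204, 16731 and 18365 in low fat pools. Mtch1 is the paralog of Mtch2, and its groups overlapped in all 4 pairwise comparisons, with changes between -0.12 and 0.06. Slc25a46, which takes part in mitochondrial fission and lipid transfer, averaged 59.2 ± 26.6 in knockout high fat, 72.9 ± 33.1 in knockout low fat, 73.5 ± 17.6 in wild type high fat and 37.9 ± 9.78 in wild type low fat. Its wild type diet change of 0.49 ± 0.22 missed the threshold (adjusted p = 0.101 in limma).

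The 5 members that were not kept were Slc25a21, Slc25a22, Slc25a31, Slc25a40 and Slc25a41, with 8 probes in all, each detected on 0 or 1 arrays. Slc25a31 is the ADP/ATP exchanger of male germ cells, and both of its probes were detected on 0 of 12 arrays, while the mean log2 value of 9 spermatid genes reached 9.74 in knockout low fat pool 3. Symbols of the deposited table can be old, and 3 further genes of the family that it lists under other names stood outside the rule. One of them, now Slc25a47, read 67.5, 117 and 52.9 in knockout high fat, 185, 141 and 251 in knockout low fat, 49.1, 85.8 and 76.9 in wild type high fat and 911, 537 and 432 in wild type low fat pools. With high fat in wild type Slc25a47 fell by 2.44 on the log2 scale (adjusted p = 0.000151 in limma). On low fat it was lower in knockout by 1.44 (adjusted p = 0.0233). Its brightest pools, those of wild type low fat, also had the highest epididymis means, 12.2 to 13.6. The part of epididymal RNA in its values was not tested. Slc25a48 and Slc25a53 were detected on 3 and 0 arrays.

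The 11 members called in wild type were set beside their knockout diet changes. In knockout 10 of the 11 had the same sign and all 11 were smaller in size, but the 11 were picked by their wild type values, so this is a description. No difference between the diet effects was called, the lowest adjusted p being the 0.117 of Slc25a12. In the wild type diet comparison 12 members were higher and 4 lower with no overlap of the pools, against 29.2% and 22.3% of all genes tested.

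Epididymis transcripts and diet split the wild type pools the same way, so their parts in the wild type diet calls cannot be told apart from these pools alone. The low fat pools were split by genotype too, with epididymis means of 8.58 to 11.1 in knockout and 12.2 to 13.6 in wild type. Seminal vesicle means were 8.86 to 9.16 and 12.4 to 14.8. Their parts and that of genotype in the low fat genotype calls cannot be told apart either. With the epididymis mean as a covariate in the fit, 0 members were called in every comparison, and 0.145% of all genes were called in the wild type diet comparison. With that covariate the wild type diet change was 0.46 for Slc25a20, -0.28 for Slc25a12, -0.45 for Slc25a29 and -0.02 for Slc25a45, and the knockout change on low fat was 0.47 for Slc25a20 and -0.50 for Slc25a12. Leaving out knockout low fat pool 1 and knockout high fat pool 2 together, an alternative chosen after the values were seen, gave 11 calls for the wild type diet, 0 for the knockout diet, 8 for the knockout on low fat, 0 for the knockout on high fat, 3 averaged and 0 for the difference. Of all genes, 39.5%, 0.589%, 15.1%, 0.0256%, 4.37% and 0.0342% were called in the same order.

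Genes that work with these carriers were read from lists. Of 6 genes of citrate export and use tested, 3 rose and 1 fell with high fat in wild type, and 4 rose with the knockout on low fat. Over all genes tested, 22.8% were higher and 16.8% lower for the diet, and 4.72% were higher and 3.18% lower for the knockout on low fat, which is the background for each list here. Me1, the malic enzyme that makes NADPH from citrate-derived malate, read 7548, 5959 and 5966 in knockout low fat pools, against 2765, 2822 and 2102 in wild type low fat pools. It was higher in knockout by 1.33 ± 0.19 on low fat (adjusted p = 0.0119 in limma), where Cs, Idh1 and Fasn rose by 0.47, 0.45 and 1.04. Acly, which splits the exported citrate, read 10570.4, 9251 and 10154 in wild type high fat pools, against 18365, 15453 and 15324 in wild type low fat pools, and fell by 0.71 on the log2 scale (adjusted p = 0.0213). The list's median change was 0.24 for the wild type diet and 0.46 for the knockout on low fat, where the medians of all genes were 0.061 and 0.038.

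Of 7 carnitine shuttle genes, 2 rose and 1 fell with high fat in wild type. Cpt2, which turns acylcarnitines back to acyl-CoA inside the matrix, rose by 0.41 ± 0.12 (adjusted p = 0.0234 in limma) and Cpt1b, which makes acylcarnitines at the outer membrane, by 0.92 ± 0.33 (adjusted p = 0.0477). Cpt1b read 140.5, 129 and 125 in knockout high fat and 289, 114 and 108 in knockout low fat pools. Cpt1b in wild type read 151, 146 and 282 in high fat and 47.8, 54.9 and 138 in low fat pools. In 3 of the 4 groups the highest Cpt1b pool was also the highest Ucp1 pool. The carnitine importer Slc22a5 fell by 0.86 (adjusted p = 0.0415). On low fat Cpt2 and Acadvl were higher in knockout, both by 0.51 (adjusted p = 0.039 for Cpt2 and 0.0416 for Acadvl).

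Of 3 malate-aspartate shuttle enzymes tested, Got2 was called, with a wild type diet change of -2.24 ± 0.52 (adjusted p = 0.00648 in limma). Got2 read 4800.1, 13468 and 3780.5 in knockout high fat and 18616, 4931 and 16731 in knockout low fat pools. Got2 in wild type read 4279.5, 4002 and 4768 in high fat and 20566, 18485 and 23282 in low fat pools. The 6 pools with an epididymis mean of 10.0 or higher had Got2 values of 13468 or more, and the other 6 had 4931 or less. Of 6 iron-sulphur and haem genes, Iscu, Alas1 and Fech rose with high fat in wild type by 0.41, 0.52 and 0.45, and Fech and Iscu rose with the knockout on low fat by 0.93 and 0.45. None of 6 branched-chain amino acid genes was called for either diet comparison, and Mccc1 was higher in knockout by 1.16 on low fat (adjusted p = 0.0306).

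Inner membrane transporters of other families gave 3 rises and 1 fall among 8 in wild type. Mpc2, a subunit of the pyruvate carrier, rose by 0.57 ± 0.10 with high fat (adjusted p = 0.00171 in limma) and by 0.64 ± 0.10 with the knockout on low fat (adjusted p = 0.0151). Sfxn5, a sideroflexin, rose with high fat in wild type by 0.90. Sfxn1, the mitochondrial serine transporter, fell by 0.74 with high fat in knockout (adjusted p = 0.0137) and fell by 0.47 in wild type (adjusted p = 0.0178). It read 6097, 4841 and 5201 in knockout high fat and 8668, 9532 and 8769 in knockout low fat pools, against 4459.9, 5117 and 6063 in wild type high fat and 7862, 6515 and 7302 in wild type low fat pools. Of 10 outer membrane pore and import genes, Tomm22 fell by 0.25 with high fat in wild type, and Tspo rose by 0.68 with the knockout on low fat. Among 11 genes of mitochondrial content, Cs alone was called in the wild type diet and low fat genotype comparisons. The list's median wild type diet change was 0.05. On low fat all 11 were positive in knockout over wild type, 9 of them with no overlap of the pools, against 19.1% of all genes tested. Their median change was 0.26, where that of all genes was 0.038, beside 0.59 for Slc25a20, 0.74 for Slc25a1 and 0.48 for Mtch2, and the part of mitochondrial content in those carrier changes was not tested.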

How the data were processed

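RNA from 12 pools of mouse epididymal fat, 3 for each genotype and diet, was hybridised to Illumina bead arrays. The deposited values used were normalized intensities, made by the authors with GenomeStudio per the submitters' processing notes, with version and settings not given in the sources used here. Their scale was linear, with values below 0 and near-equal array medians, which was read as background subtraction and an adjustment between arrays. Sorted values were equal on all arrays at 38.2% of ranks, and the kind of adjustment is not known. Deposited raw intensities (GSGX 1.9.0 per the file headers) and detection p-values carried array codes that no label ties to a pool, so they served only for gene names and detection counts, and starting from raw values or testing slides as batches was not possible. The gene-name table held 20 signal columns of no sample here.

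Genes were named by RefSeq symbol through Entrez ID or accession. Where a gene had several kept probes, that of highest mean intensity stood for it, which makes 11705 genes. In limma 3.58.1 (R 4.3.3), log2(intensity + 50) of the 12 arrays was fitted with 4 group means and 8 residual degrees of freedom, and 6 contrasts were tested and adjusted by Benjamini-Hochberg over all genes with a threshold of 0.05. The step was tested on simulated data. An intensity of 27.9, the level exceeded by the share of probes that the least sensitive array detected, served as an approximate floor. The Slc25a29 bound written as "at least" compares the geometric mean of the brighter group with that floor. With 3 pools per group, their number limits the precision. Alternatives were another offset, no filter, cyclic loess, every probe on its own, a replicate block, only the groups compared, tissue covariates and leaving out pools. Full values were given for called members, at most 8 per contrast by smallest p, and for Ucp1, Ucp2, Ucp3, Mtch1, Mtch2, Slc25a1, Slc25a4, Slc25a5, Slc25a10 and Slc25a20. Results of some genes, 1 called member among them, are not reported here, though counts include them. The members, this rule and the gene lists were chosen with earlier results of these data known.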

Additional observations from a re-analysis of the deposited data

How the results depend on the processing

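In the wild type diet comparison the number of members called was 8 to 13 under every alternative except the epididymis covariate, which gave 0, and 9 to 12 when 1 pool was left out. The share of all genes called ran from 24.8% to 41% under these alternatives, and was 0.145% with the epididymis covariate. With that covariate the sign of the Slc25a45 change turned, to -0.02453, and the other 15 changes called in a comparison kept their sign and lost their call. For the knockout on low fat, where 4 members were called, the count was 0 with only the 2 groups compared, 0 with the epididymis covariate, 7 with the skeletal muscle covariate, 8 without both knockout pools that stand apart, and 0 to 7 when 1 pool was left out. The share of all genes called, 7.9% as reported, was 0.0342%, 0.0342%, 10.9% and 15.1% under the first 4 of these. The count was 7 without knockout low fat pool 1, 0 without knockout low fat pool 2, 1 without knockout low fat pool 3, 2 without wild type low fat pool 1 and 0 without wild type low fat pool 2. The share of all genes called moved as well, to 13.3%, 0.282%, 0.564%, 1.54% and 0.214% in the same order. For the average over both diets, with 1 call, the count was 0 with an offset of 16, 0 without the filter, 0 with the epididymis covariate, 2 with the muscle covariate, 3 without both knockout pools that stand apart, and 0 to 2 when 1 pool was left out. Of all genes, 2.78% were called as reported. In the order of these alternatives the share was 1.5%, 1.07%, 0.0854%, 3.43% and 4.37%, and 0.103% to 3.48% without 1 pool. For the knockout diet comparison, with 0 calls, leaving out 1 pool gave 0 to 2. The 2 were Slc25a24 and Slc25a45 without knockout low fat pool 2, where 7.22% of all genes were called. For the difference between diet effects leaving out 1 pool gave 0 to 1. The 1 was Slc25a12 without knockout low fat pool 1, where 1.06% of all genes were called. The cause of these changes was not tested. Replicate numbers did not pair the pools: pools with the same number had deviations from their group means correlated at -0.81 to 0.16, and 1 of 12 pools correlated best with its own number. With the replicate number as a block the counts were 12 for the wild type diet, 1 for the knockout on low fat and 0 for the average. Of all genes, 35.4%, 1% and 0.154% were called with that block. Among 192 fits of a single called change without 1 pool, 156 kept the call and none changed sign. Signal over background limits Ucp2, Slc25a13, Slc25a34 and Slc25a27, each detected on 3 or 4 arrays only.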
